A study of Drosophila melanogaster with 4 samples.

Results

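The broad autosomal H3K79me2 domains were the enriched regions of 10 kb or wider on chromosome arms 2L, 3L and 3R in the combined list of regions that the authors deposited. They numbered 458, of 6163 enriched regions on these arms and 9950 in the whole list. Autosomal sequence outside these arms, such as 2R, was not examined. A list holds 1 line per region, with its ends on FlyBase release 5, a call of enrichment or depletion and the authors' score. Enriched regions are termed clusters here. The domains were selected on measured values, chosen by their width in the combined list, so widths and numbers are given as a description. The combined list was made from the same ChIP libraries as the replicate lists, so coverage in the replicates is no independent check and no p is given.

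The data are chromatin immunoprecipitation followed by sequencing (ChIP-seq) with the antibody Abcam ab3594 lot 1, directed at dimethylated lysine on histone H3, in nuclei of heads of wild-type Oregon-R flies (Oregon-R-modENCODE). There were 2 ChIP samples and 2 input samples, 1 input for each ChIP replicate, and all 4 shared strain, genotype and stage (mixed adult). Heads came from flies of population cages kept on a cycle of 22 days, and the sexes are not given. Input values were not analysed here, so ChIP was not compared with input. A head holds neurons, glia, photoreceptors, muscle and fat body, and the lists cannot tell in which of these cells a domain was marked. The labels do not say if each replicate had its own collection of flies, and the difference between replicates may be technical only.

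H3K79 methylation is placed by Dot1, called grappa in flies, which acts on the globular core of the histone rather than on its tail. The mark lies over the bodies of transcribed genes and follows elongating RNA polymerase II, often most densely towards the start of the gene. A long marked region can therefore hold 1 long gene or several neighbouring genes. No gene annotation of release 5 was used here, so domains are named by position and their genes were not analysed.

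Few clusters were broad, but they held much of the marked length. The 458 domains were 7.43% of the clusters on the 3 arms and made up 7.11 Mb, which was 27.8% of the 25.6 Mb in clusters and 9.42% of the 75.5 Mb of the arms. Most were not far above the limit, with a median width of 13.3 kb, quartiles at 11.4 kb and 17.3 kb, and 291 domains under 15 kb. There were 167 of 15 kb or wider, 76 of 20 kb or wider, 14 of 30 kb or wider and 5 of 40 kb or wider, up to 85.9 kb.

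The limit of 10 kb cuts through a continuous range of widths. Just inside it lay 2L from 6068668 to 6078672 (10005 bp), 2L from 13621204 to 13631216 (10013 bp) and 2L from 6975647 to 6985666 (10020 bp). Just outside it lay 2L from 8509237 to 8519223 (9987 bp), 3R from 5400690 to 5410657 (9968 bp) and 3L from 17028030 to 17037988 (9959 bp).

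Among the 3 arms used, 3R was richest in broad domains and 2L poorest. On 3R there were 198, or 7.10 per Mb, covering 11.3% of the arm. On 3L the 148 domains (6.03 per Mb) covered 9.20%, and on 2L the 112 domains (4.87 per Mb) covered 7.35%. The domains held 30.5% of the length in clusters on 3R, 27.5% on 3L and 24.0% on 2L, while the median width differed little, at 13.8 kb, 12.9 kb and 13.0 kb. By the same limit the X chromosome held 118 clusters, or 5.26 per Mb, between 2L and 3L. These densities come from 1 list and have no error.

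Both replicates covered most of the length of the broad domains. Replicate 1 covered 90.9% and replicate 2 covered 87.0% (89.0% ± 2.78, SD, n = 2). The median domain was covered to 95.3% in replicate 1 and to 92.8% in replicate 2, and 80 and 34 domains were covered over their whole length. The replicates shared 78.5% of the summed length, a further 12.4% was called in the first of them only and 8.49% in the second only, and 0.59% was called in no replicate. Replicate 1 covered the larger part of 235 domains and replicate 2 that of 223, so neither was the fuller throughout.

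Of the 458 domains, 432 (94.3%) were covered to at least 50% in both replicates, against 49.1% of all clusters of the combined list on these arms. At the stricter limit of 90% in both, 148 domains (32.3%) passed, against 15.0% of all clusters. A further 16 domains were under 50% in replicate 2 only, 10 were under 50% in replicate 1 only, and none was under 50% in both. Only 0.59% of the domain length was called in no replicate. A domain under 50% in both could therefore hardly occur, and nothing is read from its absence. Width and coverage rose together before the limit was reached, since 85.3% of the clusters of 5 kb to under 10 kb were at least 50% covered in both replicates.

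**Figure D1:**
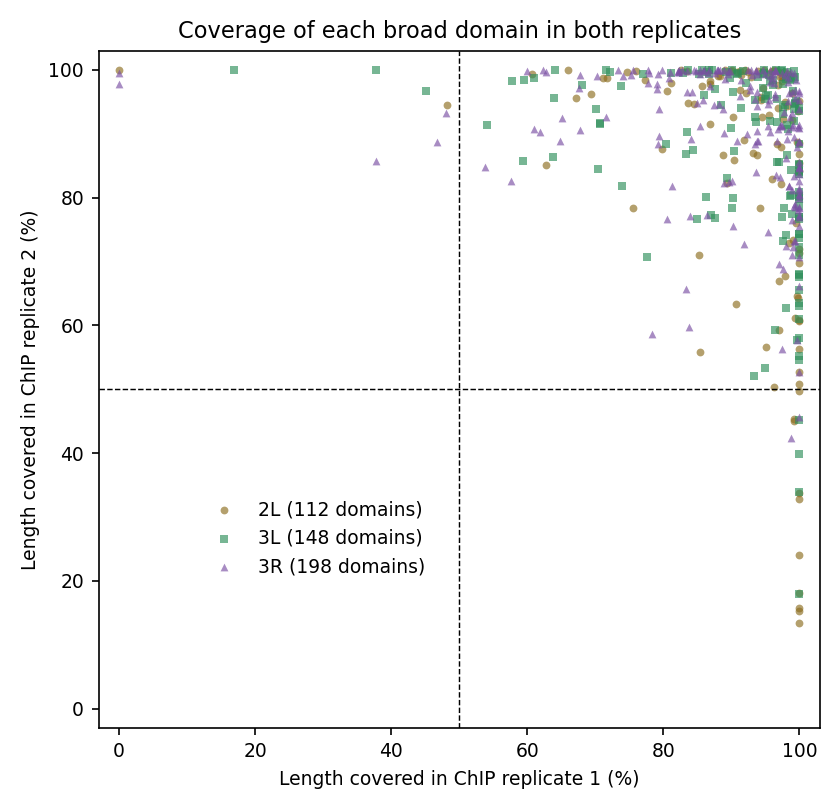
Share of the length of each broad domain covered by clusters of ChIP replicate 1 (x axis, %) and of ChIP replicate 2 (y axis, %), 1 point per domain, by arm; dashed lines mark 50%. The 432 domains in the upper right corner were at least 50% covered in both, and the lower left corner is empty. With 0.59% of the length called in no replicate, that corner could hardly be filled.

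Domains covered to under 50% in 1 replicate were above that level in the other, and most points lie along the upper and right edges of the plot of covered shares. Across the 458 domains the covered shares of the replicates ran against each other (Spearman's rho = -0.50, a description over domains that share both libraries). Replicate 1 exceeded replicate 2 by more than 20 percentage points in 91 domains, and replicate 2 exceeded replicate 1 by as much in 59. The selection by width in the combined list leaves out regions that neither replicate covered. Nearly all domain bases were called in at least 1 replicate, so a low share in 1 replicate requires a high share in the other. A negative rho is thus in part built in.

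The 5 domains with the lowest covered share in either replicate show both directions. No base of 3 of them was called in replicate 1. These were 2L from 6975647 to 6985666, a single cluster of replicate 2 that covered 100% of it, 3R from 7181516 to 7193156, covered to 97.8% by 2 clusters of replicate 2, and 3R from 20831677 to 20842173, covered to 99.6% by 1. The other two were on 2L. The 15.3-kb domain from 167222 to 182549 lay wholly inside 1 cluster of replicate 1 that ran from 161895 to 201344, and was covered to 13.4% in replicate 2. The 25.7-kb domain from 9177442 to 9203138, the third widest of 2L, was covered to 100% by 1 cluster of replicate 1 and to 15.3% by 2 clusters of replicate 2. Each of these domains was thus called mainly in 1 of the replicate lists.

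Replicate 1 was ahead on 2L and 3L, and the replicates were level on 3R. Replicate 1 covered 92.0% of the domain length on 2L, 91.5% on 3L and 89.9% on 3R. Replicate 2 covered 83.0%, 85.9% and 89.9%. The arms were thus further apart in replicate 2, where 2L was lowest. The clusters of 10 kb or wider on X were covered to 86.9% in replicate 1 and to 90.1% in replicate 2, so replicate 2 was the higher there. No test of these differences was possible with 2 replicates.

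Many domains that were continuous in the combined list were broken in a replicate. In replicate 1, 277 domains (60.5%) were met by 1 cluster and 178 (38.9%) by 2 or more, against 8.45% of all clusters on the arms that were met by 2 or more. In replicate 2, 179 domains (39.1%) were met by 1 cluster and 279 (60.9%) by 2 or more, against 10.9% of all clusters. The mean over the replicates was 49.9% ± 15.6 (SD, n = 2). Wide regions have more room to be met by several clusters, so the excess over all clusters is not particular to these domains. There were 5 or more clusters in 6 domains in replicate 1 and in 30 in replicate 2.

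**Figure D2:**
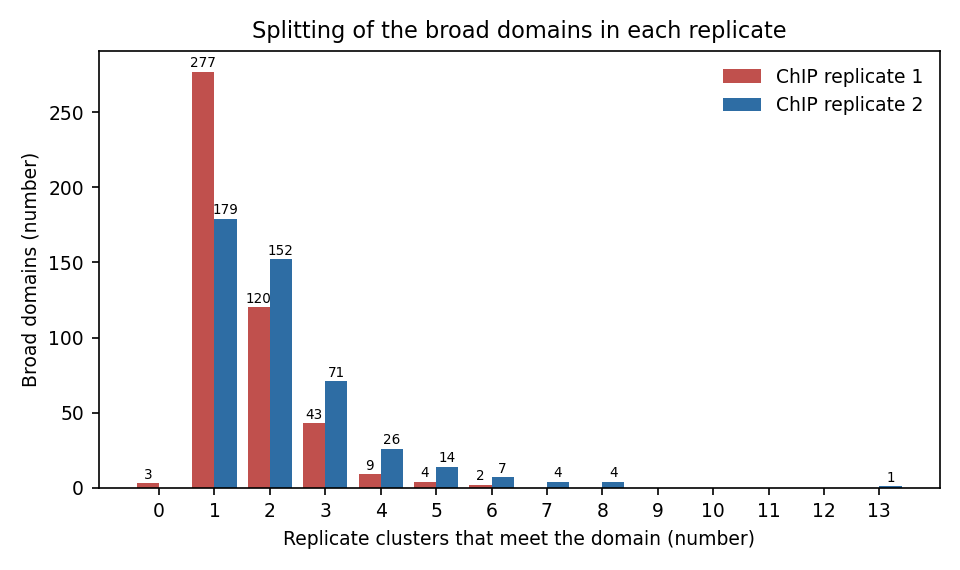
Number of broad domains (y axis) met by each number of replicate clusters (x axis), for ChIP replicate 1 and ChIP replicate 2, with counts above the bars. A single cluster met 277 domains in replicate 1 and 179 in replicate 2, and the most broken domain was met by 13 clusters of replicate 2.

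Splitting was counted over both replicates together. Only replicate 2 was split in 187 domains (40.8%), only replicate 1 in 87 (19.0%), and both in 91 (19.9%). The 90 domains that were met by 1 cluster in each replicate made up 19.7%, against 40.0% of all clusters on the arms, and were narrower, with a median of 11.6 kb against 16.3 kb for those split in both. The domains split only in replicate 2 had a median covered share of 98.9% in replicate 1 and 83.4% in replicate 2. In those split only in replicate 1 the medians were 88.3% and 99.7%. These medians are for classes in which the other replicate had 1 cluster by definition.

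The breaks were short. Between the clusters of replicate 2 inside domains there were 527 gaps, with a median of 576 bp and quartiles at 184 bp and 1311.5 bp, and 351 of them (66.6%) were under 1 kb. In replicate 1 there were 259, with a median of 466 bp, and 178 (68.7%) were under 1 kb. The longest gap was 9.65 kb in replicate 2 and 8.04 kb in replicate 1. Of the 516 kb in gaps of replicate 2, 97.7% was covered in replicate 1, and 497 of the 527 gaps (94.3%) were covered over their whole length. Of the 221 kb in gaps of replicate 1, 94.6% was covered in replicate 2, and 228 of the 259 gaps (88.0%) were covered whole. A gap in both libraries would tend to end a combined cluster, so the choice of unbroken combined clusters bears on these shares and nothing is read from them.

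With the clusters of each replicate joined where under 1 kb apart, 15.3% of the domains were still met by 2 or more clusters in replicate 1 and 29.9% in replicate 2. Replicate 2 remained the more broken. On X the order was the other way round, as 61.9% of the clusters of 10 kb or wider were met by 2 or more clusters in replicate 1 and 50.0% in replicate 2. On 2L, 3L and 3R the share was 38.4%, 36.5% and 40.9% in replicate 1 and 58.9%, 62.2% and 61.1% in replicate 2.

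The widest domains show how the lists differ. On 3L, the 85.9-kb domain from 17955295 to 18041176 was 1 cluster of replicate 1, covering 100%, and 13 clusters of replicate 2, covering 71.0%. In replicate 2 the longest of the 13 was 27.9 kb. The next widest of 3L were 2 neighbours only 51 bp apart. One spanned 42.0 kb (22359457 to 22401485) and the other 41.7 kb (22317678 to 22359405). A single cluster of replicate 1 ran over both. Replicate 2 covered 93.8% of the one with 3 clusters and 94.1% of the other with 5. The 31.5-kb domain from 543639 to 575123 was covered to 97.6% by 1 cluster in replicate 1 and to 73.3% by 6 in replicate 2. The 27.4-kb domain from 15957409 to 15984789 was split in both, with 4 clusters covering 97.6% in replicate 1 and 3 covering 97.8% in replicate 2.

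On 2L the widest was 62.2 kb, from 7893338 to 7955570. It was 1 cluster of replicate 1, covering 99.9%, and 8 clusters of replicate 2, covering 93.6%. Next came 38.7 kb from 1051323 to 1090055, covered to 96.7% by 2 clusters in replicate 1 and to 88.4% by 5 in replicate 2. After the 25.7-kb domain described above, the fourth was 25.5 kb from 6178417 to 6203887, which 1 cluster of replicate 1 covered to 97.8% and 3 of replicate 2 to 94.9%. It had 50134 bp free of combined clusters on its lower-numbered side, and the next cluster was 444 bp away on the other. The fifth, 24.7 kb from 12997330 to 13022019, was the 1 domain among the 5 that replicate 1 covered less, to 77.3% against 98.4%, with 3 clusters in each.

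On 3R the widest was 46.4 kb, from 25877615 to 25924056, with 1 cluster covering 99.2% in replicate 1 and 8 covering 73.3% in replicate 2. The 39.2-kb domain from 27243448 to 27282602 was likewise 1 cluster (98.2%) and 8 clusters (89.2%). The 38.1-kb domain from 26150058 to 26188181 was 2 clusters (99.3%) in replicate 1 and 6 (79.02%) in replicate 2. Less broken was the 34.8-kb domain from 5779930 to 5814702, which was 1 cluster (99.4%) and 2 clusters (96.8%). In the fifth, 34.3 kb from 27447404 to 27481713, the order turned, with 4 clusters (95.7%) in replicate 1 and 2 (98.1%) in replicate 2. Of these 15 domains, 14 were covered to at least 95% in replicate 1 and 4 in replicate 2.

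**Figure D3:**
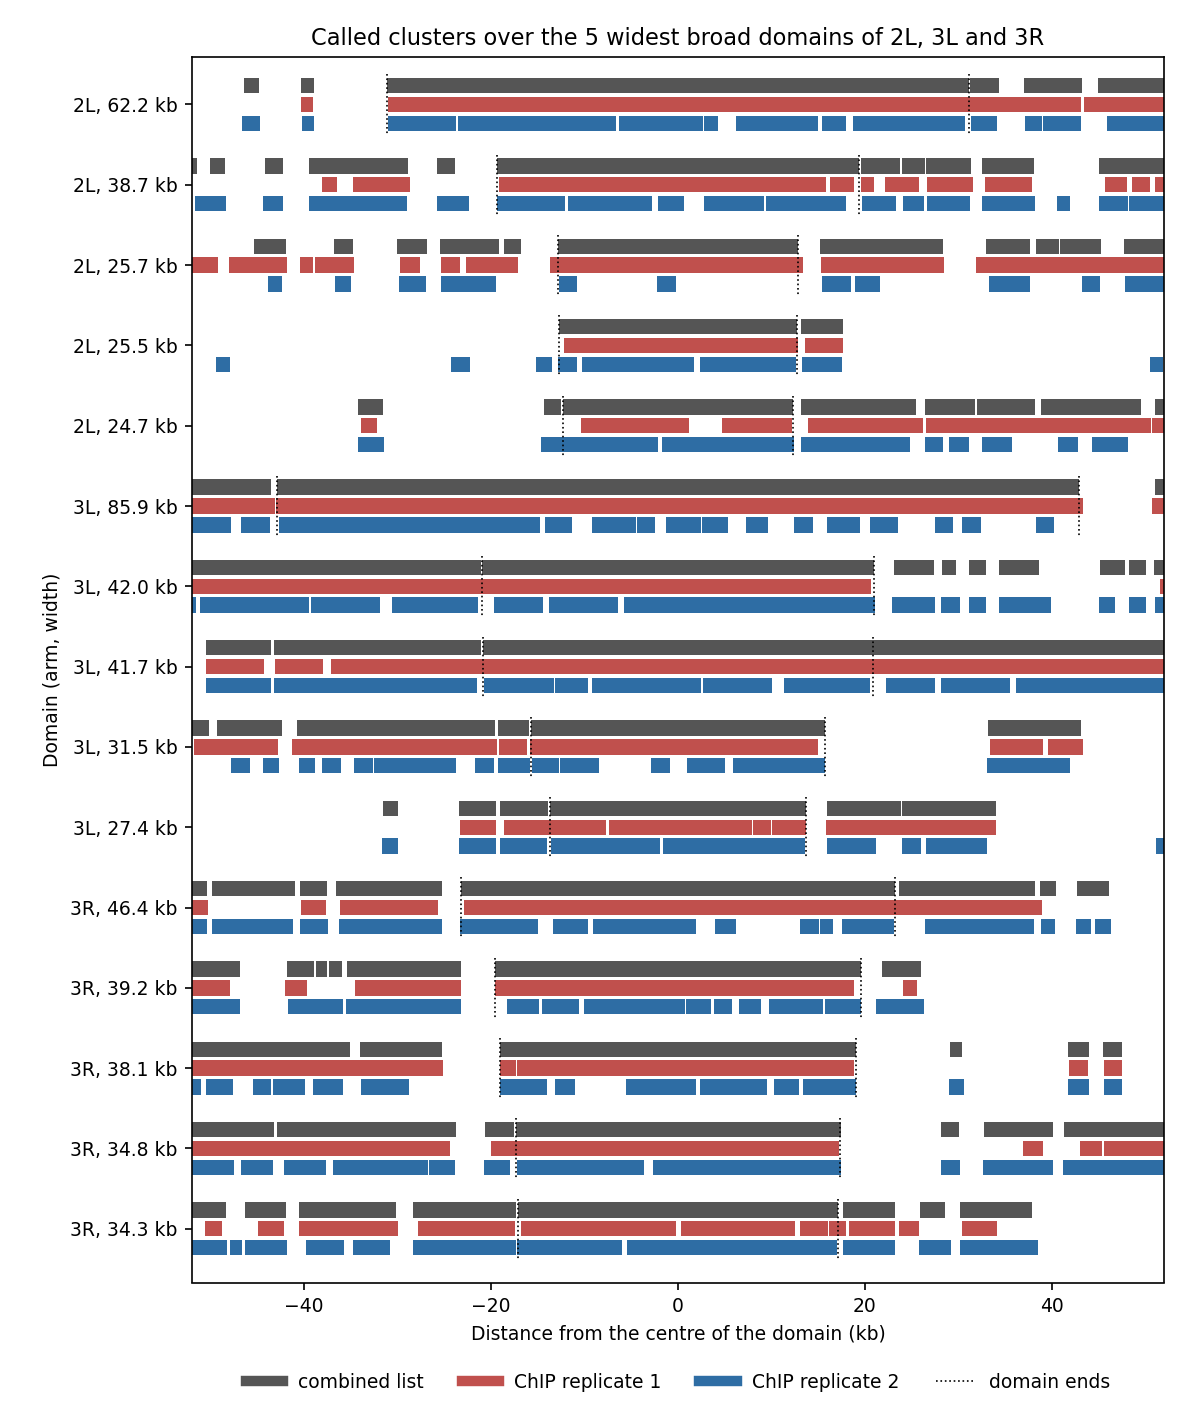
Clusters of the combined list, ChIP replicate 1 and ChIP replicate 2 over the 5 widest broad domains of each arm, drawn by distance from the centre of the domain (kb); dotted lines are the ends of the domain and each row gives its arm and width. Replicate 1 fills most domains with 1 cluster, while replicate 2 is broken, as in the 85.9-kb domain with 13 clusters.

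The domains most broken in replicate 1 were others. On 3L, the 24.5-kb domain from 11729496 to 11753993 was met by 6 clusters of replicate 1 (84.4%) and 7 of replicate 2 (87.4%). On 3R, the 20.9-kb domain from 25248690 to 25269556 was met by 6 clusters of replicate 1 covering 48.0%, and by 4 of replicate 2 covering 93.2%. The 25.6-kb domain of 3R from 23228735 to 23254316 was met by 5 (67.6%) and 2 (97.1%). In the other two, replicate 2 had 1 cluster. These were 3R from 25817302 to 25841261 with 5 clusters (82.8%) and 1 cluster (100%), and 3L from 5754616 to 5774973 with 5 (87.1%) and 1 (99.96%). A tie at 5 clusters was settled by width, which left out the 17.0-kb domain of 2L from 940843 to 957829 with 5 (69.4%) and 1 (96.3%). The 5 most broken in replicate 2 were the 85.9-kb domain of 3L with 13 clusters, the widest of 2L and the 2 widest of 3R with 8 each, and a 25.5-kb domain of 3L from 4335962 to 4361469 with 8 clusters (85.3%). All 5 were 1 cluster in replicate 1.

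Domains that were 1 cluster covering at least 95% in both replicates were few and narrow. There were 20, or 4.37% of the domains, with a median width of 11.7 kb. The widest, 17.3 kb, was on 3R from 3843620 to 3860964, where replicate 1 covered 97.5% and replicate 2 covered 99.5%. The next, on 3L from 20799676 to 20814693, was 15.0 kb wide and covered to 98.8% and 98.7%. Both following domains lay on 3R, at 1405815 to 1420416 (14.6 kb, 98.9% and 96.5%) and 6146841 to 6160612 (13.8 kb, 100% and 96.7%). The fifth lay on 3L at 1304973 to 1317788 (12.8 kb, 96.6% and 100%). The limit of 95% bears on this maximum, since a 28.7-kb domain on 3R from 19720303 to 19749011, chosen after its values were seen, was 1 cluster in each replicate and covered to 94.7% and 100%.

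The longest run of bases that both replicates covered without a break gives the extent on which the libraries coincide. Its median was 6.89 kb per domain, or 48.4% of the domain. In 92 domains (20.1%) it was itself 10 kb or longer, and the longest was 27.9 kb, in the 85.9-kb domain of 3L. A cluster of 10 kb or wider met the domain in both replicates in 122 cases (26.6%), in replicate 1 only in 201 (43.9%) and in replicate 2 only in 82 (17.9%). In 53 domains (11.6%) neither replicate had a cluster of that width. The width in the combined list was thus in most domains not that of a continuous call in both replicates.

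Seen from the replicate lists, the wide calls of replicate 1 were often cut up in the combined list. On the 3 arms, replicate 1 held 449 clusters of 10 kb or wider (median 14.6 kb, widest 99.7 kb) and replicate 2 held 226 (median 12.7 kb, widest 29.9 kb). Of those of replicate 2, 212 (93.8%) met a broad domain of the combined list, and of those of replicate 1, 304 (67.7%) did. In replicate 1, 273 of the wide clusters (60.8%) met 2 or more clusters of the combined list, against 24 (10.6%) in replicate 2. The widest of replicate 1 without a broad domain was 53.7 kb on 3L from 10508970 to 10562627, which met 10 combined clusters, followed by 48.2 kb on 3L from 3544674 to 3592843, which met 12. In replicate 2 the widest without a domain was 15.4 kb on 3R from 23082717 to 23098110. None of the wide clusters of either replicate lay outside the combined list altogether.

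The ends of the domains lay close to those of replicate 2. From a domain end to the nearest cluster end of the same side, the median distance in replicate 2 was 95.5 bp, against 518 bp for replicate 1. Within 200 bp lay 615 of the 916 ends (67.1%) in replicate 2 and 266 (29.0%) in replicate 1. A cluster of replicate 1 ran more than 5 kb beyond the domain in 122 domains (26.6%), and one of replicate 2 in 3. At more than 1 kb beyond, the counts were 189 and 20. Replicate 1 thus often joined the domain to its surroundings, where replicate 2 and the combined list ended. The ends of narrower clusters were not compared in this way, so none of this is called particular to the broad domains.

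**Figure D4:**
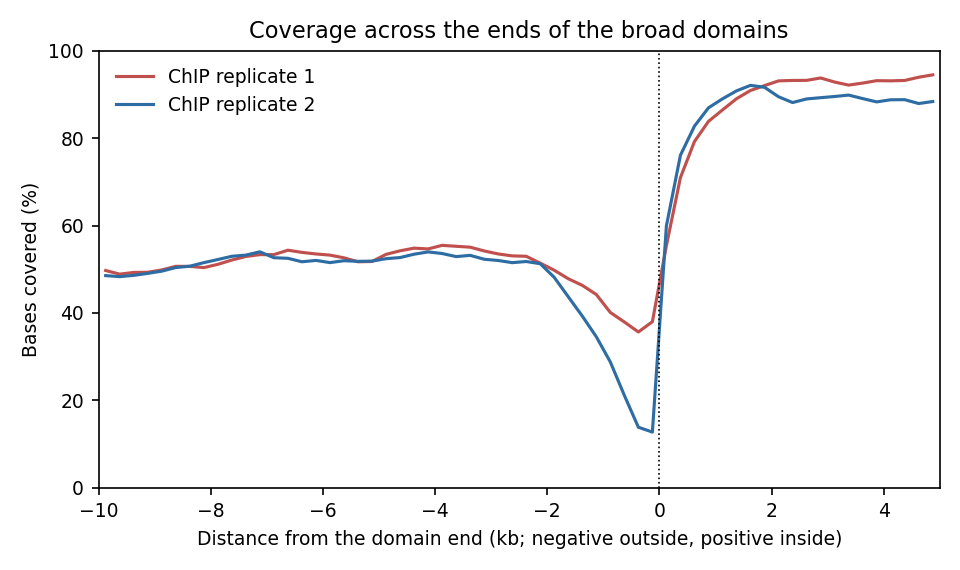
Share of bases covered (y axis, %) by distance from the domain end (x axis, kb, negative outside), over both ends of the 458 domains in bins of 250 bp, for each ChIP replicate. Coverage was lowest just outside the end, more so in replicate 2, and returned to about the same level in both replicates further out. The low next to the end is in part built in, since a domain's cluster stops there by definition.

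Broad domains lay in surroundings that were themselves marked. In the first 1 kb outside the ends, 37.9% of bases were covered in replicate 1 and 19.1% in replicate 2. A domain's cluster stops at its end by definition, so low values there are in part built in. From 5 to 10 kb outside it was 51.6% and 51.3%, against 27.4% and 29.8% over the whole of the 3 arms. Coverage then fell, to 46.1% and 46.5% from 10 to 20 kb, 37.8% and 39.6% from 20 to 50 kb and 30.3% and 34.6% from 50 to 100 kb. Around clusters of 5 kb to under 10 kb coverage also fell with distance, with 46.5% and 46.9% from 5 to 10 kb and 31.1% and 34.2% from 50 to 100 kb. The flanks of neighbouring regions overlap, and no test of this difference was made.

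Many domains were parted from the next cluster by a short gap only. Of the 458, 311 (67.9%) had another combined cluster under 1 kb away, against 54.0% of the clusters under 10 kb, and 57 had one under 100 bp away. Only 4 were more than 10 kb from any other cluster. With combined clusters under 1 kb apart joined, the 3 arms held 747 stretches of 10 kb or wider, of which 340 held no broad domain and 45 held 2 or more. The widest was 126 kb on 3L, from 17914723 to 18041176, which took in the 85.9-kb domain and 7 further clusters. Replicate 1 covered 98.1% of it with 3 clusters and replicate 2 71.8% with 23. The width of a domain thus depends on gaps that were often short.

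Domains also came in groups. With 10 kb or less between neighbours, 175 domains (38.2%) fell into 77 groups, 18 of them with 3 or more domains. The same share is not given for narrower clusters, so grouping is not called particular to the broad domains. The longest was on 3R from 5699933 to 5814702, with 5 domains in 115 kb, of which 3 clusters of replicate 1 covered 95.7% and 16 of replicate 2 covered 87.0%. On 3L from 22295333 to 22401485, 3 domains parted by gaps of 51 bp and 170 bp filled 99.8% of 106 kb. The widest cluster of replicate 1, 99.7 kb from 22301382 to 22401128, met all 3, and replicate 2 covered 94.5% of the group with 9 clusters. The third was on 3R from 25864270 to 25939039, with 3 domains in 74.8 kb, covered to 95.7% by 3 clusters and to 76.1% by 10.

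At the scale of 1 Mb the domains were spread over most of the arms. Of 74 complete windows, 71 held at least 1 domain by its midpoint, with a median of 6 and at most 15. The incomplete windows at the arm ends are not counted, and the 12 domains in them were all on 3R. The window with the largest share in domains was 3R from 5000001 to 6000000, with 14 domains and 25.4% of its length, and 3L from 1000001 to 2000000 held the most domains, 15, at 20.6%. The 3 windows without one were 2L from 15000001, 2L from 22000001 and 3L from 23000001. The last 1 Mb of 2L and of 3L next to the centromere held none, and the first 1 Mb of 3R held 4. The longest stretch between neighbouring domains was 2.27 Mb on 2L, from 14220974 to 16494876. It was not empty, as it held 146 clusters that covered 17.8% of it, the widest 7.96 kb. Sequence where reads cannot be placed was not examined, so a lack of calls near the centromeres need not mean little mark.

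The authors' score, used only to rank clusters within a list, was high in the broad domains. Their median lay at percentile 84.0 of the combined list, 165 were among the highest 10% of it, and 3 were below its median score. The median score was 1.18, against 0.51 in the clusters under 10 kb of the same arms. The median rose with width below the limit too, from 0.33 at 1 kb to under 2 kb to 1.01 at 5 kb to under 10 kb. It was 1.13 at 10 kb to under 15 kb. In the clusters of 10 kb or wider on X it was 1.38, so a high score was not particular to these domains. Within the domains, score rose little with width (Spearman's rho = 0.15 over the 458 domains, a description). The domain with the highest score was 11.9 kb, on 3L from 13999637 to 14011536, and was 1 cluster in each replicate, covering 99.2% and 99.8%. The next was on 3L from 1772272 to 1794491, covered to 93.9% by 2 clusters in replicate 1 and to 98.9% by 1 in replicate 2. The third was on 2L from 5316327 to 5328835, 1 cluster in each (97.5% and 98.9%).

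Domains with higher scores were covered more fully and broken less often in replicate 2. From the lowest to the highest score quartile of the domains, replicate 2 covered 73.0%, 84.5%, 91.5% and 96.9% of the length, while replicate 1 covered 86.0%, 93.0%, 91.7% and 92.2%. The share of domains met by 2 or more clusters fell in replicate 2, from 80.0% to 76.3%, 57.9% and 29.6%. In replicate 1 it was 40.9%, 27.2%, 38.6% and 48.7%, with no such fall. Over the 458 domains, rho between score and covered share was 0.60 in replicate 2 and -0.06 in replicate 1. The combined score was made from both libraries, so these values describe the lists and are no test.

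Coverage and splitting changed with width on both sides of the limit. Replicate 1 covered 23.9% of the length of clusters of 1 kb to under 2 kb, 82.9% at 5 kb to under 10 kb, 89.0% at 10 kb to under 15 kb and 94.1% at 20 kb or wider. Replicate 2 covered 65.3%, 87.4%, 87.3% and 87.2% in the same classes. Replicate 2 thus covered more of the narrow clusters, and replicate 1 more of the wide ones. The mean number of clusters per domain rose from 1.40 to 2.08 in replicate 1 and from 1.76 to 3.51 in replicate 2 between domains of 10 kb to under 15 kb and those of 20 kb or wider.

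**Figure D5:**
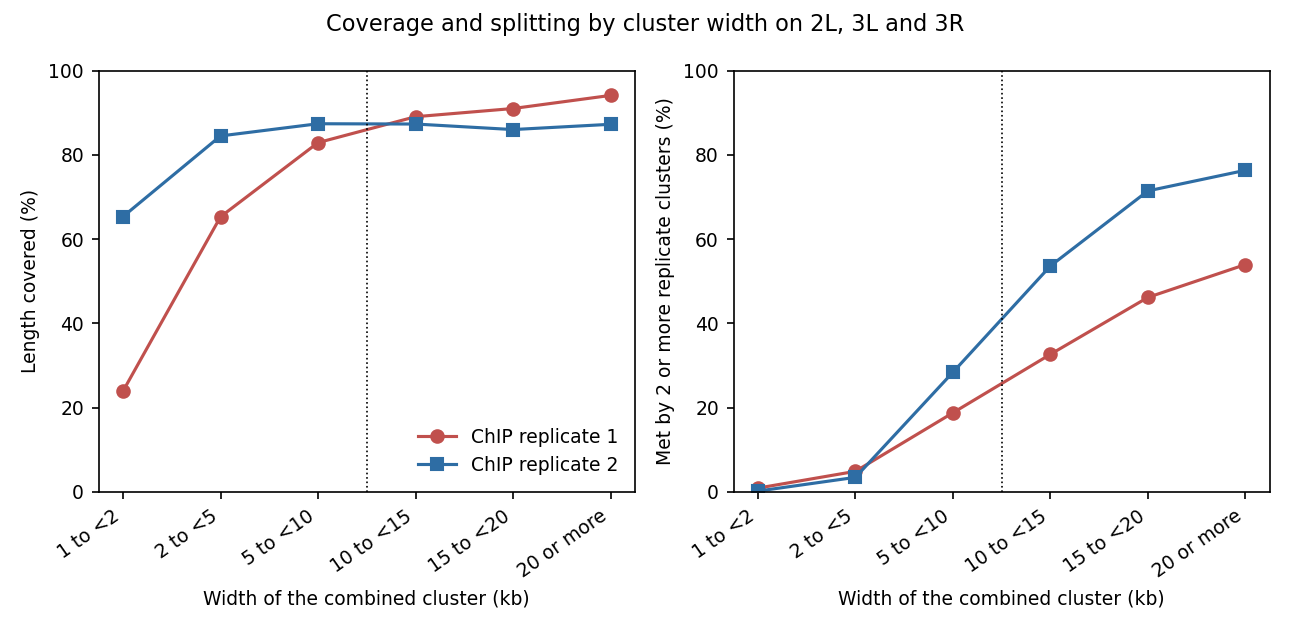
Left, length covered (%) and right, share of combined clusters met by 2 or more replicate clusters (%), by width class of the combined cluster (x axis, kb) on 2L, 3L and 3R for each ChIP replicate; the dotted line marks the limit of 10 kb. Replicate 1 passes replicate 2 in covered length at 10 kb, and splitting was more frequent in replicate 2 in the classes of 5 kb and wider.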

How the data were processed

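The submitters' processing notes name Bowtie 0.12.7 as the aligner. For each ChIP replicate, and for both combined, the authors deposited a list of regions with a score per region. Positions refer to FlyBase release 5, per the file headers. Not given in the sources used here are the region caller, its thresholds, the use of input, the scale of the score and how the lists were combined. No read counts were analysed, so the sequencing depth is unknown.

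Coverage is the share of a domain's bases in clusters of a replicate, and a cluster meets a domain if they share at least 1 bp. Overlap counts were tested on simulated data. Covered shares are weighted by length unless given as medians. Named regions were the 5 widest domains of each arm, the 5 most broken in each replicate, the 5 widest that were 1 cluster of at least 95% coverage in both, the 5 least covered in either, the 3 with the highest scores, the 3 on each side of the limit and the 3 longest groups. The domains, this rule and the alternatives were chosen with earlier results of these data known. The gene table is of release 6 and gave no positions. Python 3.11.15, numpy 2.4.6, pandas 2.3.3, scipy 1.17.1 and matplotlib 3.10.9 were used.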

Additional observations from a re-analysis of the deposited data

Results flagged for a closer look

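Regions called depleted were left out of the comparisons above, and are a second kind of call in the same lists. On 2L, 3L and 3R there were 70 in replicate 2 and none in replicate 1. Of the 70, 8 (11.4%) touched a broad domain of the combined list, and 67 (95.7%) touched a combined cluster of any width. Combined clusters took up 25.6 Mb of the 75.5 Mb of the arms. The broad domains were 27.8% of that cluster length and 7.43% of the clusters by number. The share of 11.4% lies between these, so nothing is read from it on concentration. The 8 that touched a broad domain lay in 7 domains. On 2L, both 12529656 to 12531335 and 12533344 to 12534970 touched the domain from 12530063 to 12541476. The others were 2818033 to 2819847, 6499311 to 6501056, 11651948 to 11653714 and 16632351 to 16634197 on 3L, and 5254912 to 5256640 and 25924529 to 25926364 on 3R. Replicate 1 covered 100% of 7 of the 8 regions and 55.5% of the first on 2L. The domains concerned were covered to at least 96.3% in replicate 1 and to between 34.0% and 80.6% in replicate 2. The 5 depleted regions of the combined list on these arms touched no cluster of that list. Input values were not analysed, and the cause was not tested.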

How the results depend on the processing

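Counts are called moved when over 1.5 times apart, means when over 1 SD apart, and shares when outside the 95% Wilson interval, which covers counting over domains only. The number of domains moved from 458 to 167 with a limit of 15 kb and to 76 with 20 kb, to 747 with combined clusters under 1 kb apart joined, and to 226 with the limit applied to replicate 2 alone, an alternative chosen after seeing the data; replicate 1 alone gave 449. The share covered to at least 50% in both replicates moved from 94.3% to 89.3% on 2L alone and 96.5% on 3R alone, to 72.9% when replicate clusters below their list's median score were dropped, and to 32.3% with 90% required. Each arm is part of the 458 domains, and the interval leaves out the arm's own counting error. The label is thus no test of a difference between arms. Joining replicate clusters under 1 kb apart lowered the share met by 2 or more from 38.9% to 15.3% in replicate 1 and from 60.9% to 29.9% in replicate 2. Leaving out 1 replicate gave 87.0% to 90.9% for the mean covered share and 38.9% to 60.9% for the mean share met by 2 or more. With 2 replicates, leaving out 1 can never shift a mean by over 1 SD. That limit could therefore not call these means moved, and nothing is concluded from it. The other alternatives moved no value by these limits. No paired analysis was possible because the files analysed here hold no values for the input samples, the only samples that share replicate numbers with the ChIP samples. Depth is unknown, and a base outside the lists was not called at this depth.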
